A study of Rattus norvegicus with 54 samples.

Results

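The intercalated disc genes followed here were 10 of the 40319 genes listed in each count table of rat left ventricle, and they were found by their symbols. No measured value entered that rule, although the set was proposed with earlier results of these data known. They comprised 3 connexins (Gja1, Gja5 and Gjc1), the cadherin of the adherens junction (Cdh2), 5 desmosomal genes (Dsp, Pkp2, Jup, Dsg2 and Dsc2) and the scaffold gene Tjp1. All 10 passed the filter on low counts in every comparison, and the lowest count of any of them in a library was 99, for Gja5. The 54 polyA libraries came from 18 female athymic rats of strain F344/NJcl-rnu/rnu, operated on at 8 weeks of age and sampled 1 week later. The rnu/rnu background, in which mature T cells are lacking, was shared by the controls. In 6 rats the surgery was a sham, in 6 the left anterior descending coronary artery was tied off permanently with no further treatment (untreated MI), and in 6 the ligation was followed in the same operation by a cell sheet laid on the ischemic surface (MI+Cell Sheet). The sheet had a layer of human endothelial progenitor cells and a layer of smooth muscle cells derived from human mesenchymal stem cells. From each heart came an infarct zone piece (anterior wall), a border zone piece (lateral wall) and a remote zone piece (septum), which gave 9 groups of 6 libraries. In sham hearts the zone names denote the matching walls. The labels name the 6 libraries of a group technical replicates, whereas the study's methods describe 6 hearts, so the p-values measure the spread between these libraries. Reads were aligned to the rat genome alone, and whether RNA of the human sheet added to the counts was not tested.

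The intercalated disc joins cardiomyocytes end to end. Its gap junctions, built of connexins, pass the depolarizing current from cell to cell; its adherens junctions, built on N-cadherin, carry the force of the myofibrils; and its desmosomes tether the intermediate filaments of neighboring cells. In the ventricle these junctions mingle into a mixed structure, the area composita, and inherited loss of desmosomal proteins is known to cause arrhythmogenic cardiomyopathy. After infarction, loss of Cx43 (the product of Gja1) from the disc and its spread to the lateral cell membrane is a well-known feature of the surviving border myocardium. Gja1 is also expressed by fibroblasts, smooth muscle and endothelium, Gja5 (Cx40) by arterial endothelium, atrial myocytes and the conduction system, and Gjc1 (Cx45) by nodal tissue and smooth muscle.

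Upstream sequence is shown for Gja1 and Gja5, the connexin genes called in opposite directions in the untreated MI infarct zone, relative to all transcripts. RefSeq promoter windows (GRCr8, 250 bases upstream of the start) were found for 7 members, Gja1, Gja5, Dsp, Jup, Dsg2, Dsc2 and Tjp1. The counts were made on the mRatBN7.2 assembly, so these positions belong to another build than the counts. The stretches lie at chr20:36302314-36302489 for Gja1 and chr2:187290977-187291226 for Gja5, both on the plus strand, and end before the annotated span of the gene. Capitals mark matches, on either strand, to 6 motifs, which were GGGCGG (the GC box), TGANTCA (known for AP-1), AGATAA (known for GATA factors), CATTCC (known for TEAD factors), TATAAA (the TATA box) and CACGTG (the E-box).
Gja1: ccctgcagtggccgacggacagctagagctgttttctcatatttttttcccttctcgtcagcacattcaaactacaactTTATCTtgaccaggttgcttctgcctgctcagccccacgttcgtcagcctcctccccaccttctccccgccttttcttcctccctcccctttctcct
Gja5: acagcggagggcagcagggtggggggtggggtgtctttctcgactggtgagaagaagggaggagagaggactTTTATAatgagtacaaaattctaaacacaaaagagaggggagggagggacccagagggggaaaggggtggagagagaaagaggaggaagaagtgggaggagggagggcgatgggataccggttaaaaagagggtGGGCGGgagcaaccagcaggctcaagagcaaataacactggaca

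The GC box was present in 5 of the 7 windows, beside 30.5% of all 33469 RefSeq windows of this length. Of the other motifs, AP-1 was found for Gja1 at -58, past the end of the stretch shown (6.34% of all windows), GATA for Gja1 at -171 (10.3%) and the TATA box for Gja5 at -178 (12.9%). TEAD (12.1%) and the E-box (5.59%) had no match in the 7 windows. Positions are counted from the annotated start, and the matches are letters in a window, not sites of binding.

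Cardiomyocyte content differed widely between the libraries. The counts on genes per library were between 12699204 and 23397754. The summed level of 12 cardiomyocyte marker genes, as counts scaled to library size with TMM factors (CPM), had a median of 88650 in the sham infarct zone (32370 to 101200), 16680 in untreated MI (4458 to 56000) and 3947 in MI+Cell Sheet (1190 to 44040). Border zone medians were 87390 (29790 to 92710), 31200 (6686 to 43340) and 25520 (208.8 to 44600) in the same order. The remote zone medians were 82840 (40290 to 88980), 52090 (41320 to 63620) and 77300 (29160 to 87460). None of the 12 markers had a group median under 1 CPM. The fibroblast marker score (mean log2 CPM of 8 genes) had medians of 7.87, 9.62 and 9.85 in the infarct zone and 7.64, 8.96 and 7.71 in the remote zone. In bulk tissue, fewer cardiomyocytes and less RNA per cardiomyocyte cannot be told apart. The share of reads assigned to no gene also differed, with medians of 32.0% in the untreated MI remote zone and 23.3% in the MI+Cell Sheet remote zone, and its part in the results was not tested.

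2 hearts stood apart in cardiomyocyte content. Sham replicate 5 had the lowest cardiomyocyte score and the highest macrophage score of its group in all 3 zones, for example 7.30 for macrophages in the infarct zone, where the sham median was 4.93. MI+Cell Sheet border replicate 1 held almost no cardiomyocyte RNA, with a summed marker level of 208.8 CPM, Tnnt2 at 35.1 CPM and Ckm at 2.12 CPM. In the same library the adipocyte score was 5.33 and the adipocyte hormone gene Adipoq was at 178.3 CPM. The remote zone piece of that heart had the lowest cardiomyocyte score (10.98) and the highest fibroblast score (9.62) of its group. The median adipocyte score of the MI+Cell Sheet border zone was 4.82, beside -0.0827 in untreated MI. In untreated MI, 6 of the 8 list genes had medians under 1 CPM. MI+Cell Sheet border replicates 3 (-0.236) and 4 (1.24) lay within the untreated MI range (-0.880 to 2.54). In the MI+Cell Sheet infarct zone the skeletal muscle score was 2.75 in replicate 2 and 4.37 in replicate 6, and between -0.437 and -0.0424 in the other four libraries. Without both of these libraries, an alternative chosen after seeing the data, 0 members passed against untreated MI and 8 against sham, where 56.9% of all genes passed.

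**Figure D1:**
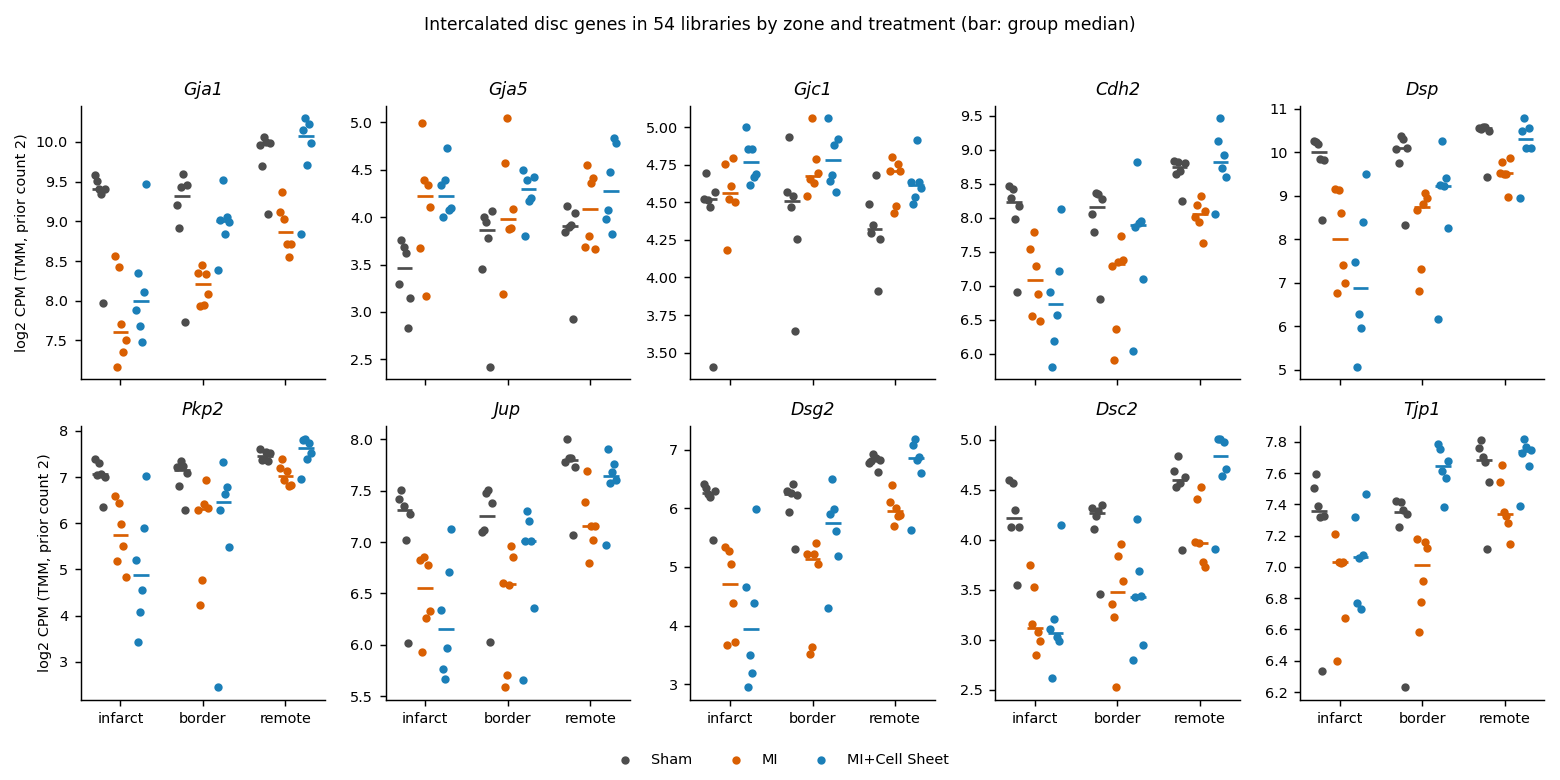
Level of each of the 10 genes (y axis, log2 CPM with TMM factors and a prior count of 2) in every library, by zone on the x axis and treatment in color, with the group median as a bar. The low gray point in most sham groups is Sham replicate 5, and in the remote zone the blue points of Gja1, Cdh2 and Dsg2 lie above most orange points.

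Over the 54 libraries, 7 members moved as a bloc. The Spearman correlations among Gja1, Cdh2, Dsp, Pkp2, Jup, Dsg2 and Dsc2 were between 0.870 (Gja1 with Dsc2) and 0.970 (Cdh2 with Pkp2), and those with the cardiomyocyte score were between 0.855 (Gja1) and 0.942 (Dsp). Tjp1 followed this score less closely, at 0.583, and its correlation with the arterial endothelial score was 0.711. The other two connexins had the opposite sign, with -0.321 for Gja5 and -0.381 for Gjc1, and Gja5 had its highest correlation with the score of mural and smooth muscle cells, at 0.671. These values describe libraries that share 18 hearts and span zones and treatments.

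**Figure D2:**
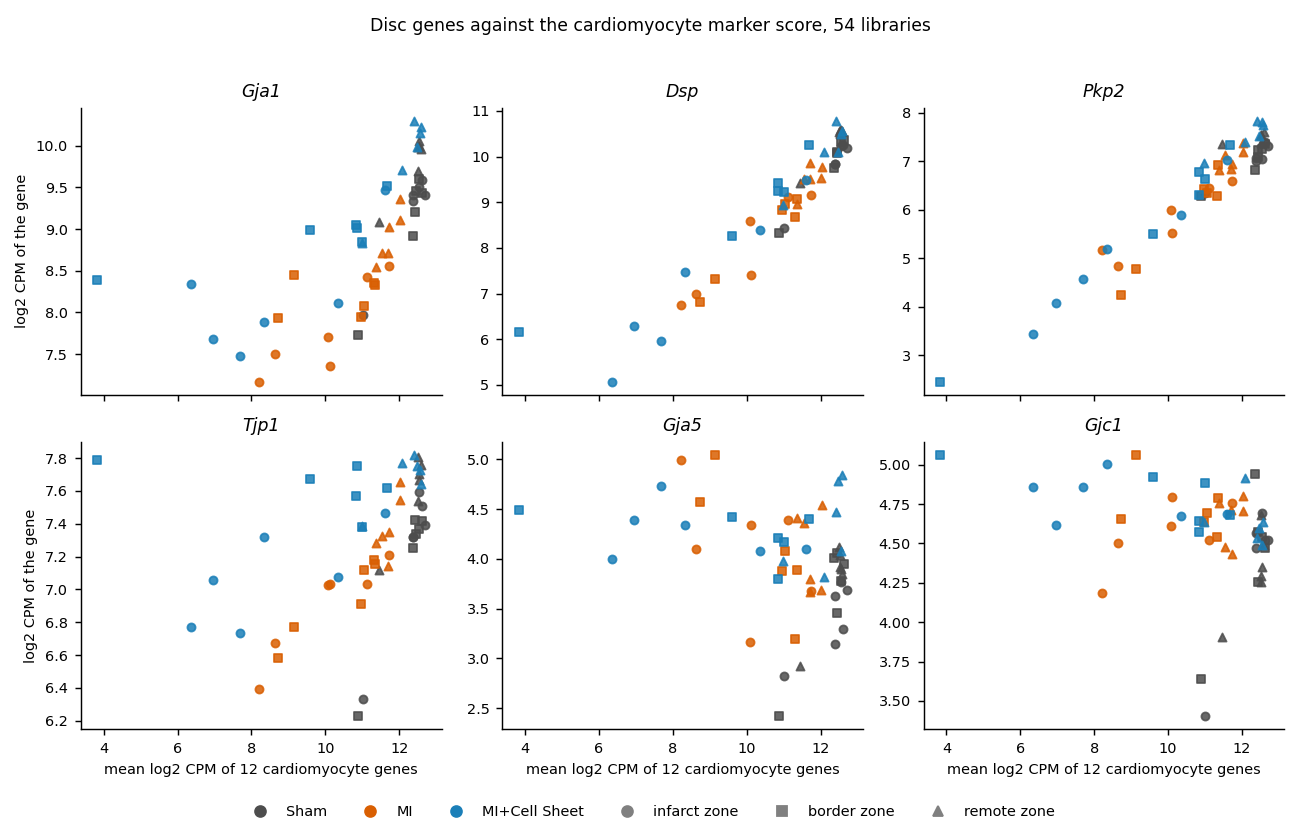
Level of 6 members (y axis, log2 CPM) against the mean log2 CPM of 12 cardiomyocyte genes (x axis) in 54 libraries, with treatment as color and zone as marker shape. Dsp and Pkp2 follow the score closely, whereas in the library farthest to the left, MI+Cell Sheet border replicate 1, Gja1 was still at 334.2 CPM and Tjp1 at 220.6 CPM.

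That library separated the members further. Pkp2, the plakophilin of the cardiac desmosome, was at 5.35 CPM there and at a median of 88.96 CPM in its group. Dsp was at 71.5 CPM against a median of 601.3 CPM. Gja1, at 334.2 CPM, was the lowest of its group but within the range of the 6 untreated MI border libraries (245.2 to 348.5 CPM). Tjp1, Gja5 and Gjc1 were each at the highest value of the group in this library, at 220.6, 22.4 and 33.3 CPM.

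The first comparison asks how the disc genes stand in infarcted hearts without treatment. Relative to all transcripts, 7 of the 10 members fell in the infarct zone of untreated MI and Gja5 rose, 5 fell in the border zone, and 6 fell in the remote zone. Relative to the 12 cardiomyocyte genes, by contrast, the estimates of all 10 were positive in the infarct and border zones, and in the remote zone the sign turned for Pkp2 and Jup among those that fell. On that scale, however, 87.4% of all genes were called higher in the infarct and 81.5% in the border zone. The cardiomyocyte genes themselves fell, 12 of 12 in the infarct and border zones and 5 of 12 in the remote zone, with median log2 fold changes of -1.85, -1.55 and -0.538. Of all genes tested, 49.9% passed in the infarct zone (27.2% lower, 22.7% higher), 41.7% in the border zone (23.2% lower) and 25.8% in the remote zone (14.2% lower). The median log2 fold change of the members was -0.975 in the infarct, -0.803 in the border and -0.481 in the remote zone, and the median over all genes tested was between -0.0437 and -0.0214.

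Gja1, the main connexin of working ventricular muscle, was at 250.7 to 767.8 CPM (median 679.9) in the sham infarct zone and at 143.6 to 377.0 CPM (median 194.8) in untreated MI. The ranges overlapped only through Sham replicate 5, since the next sham library was at 648.3 CPM. Gja1 fell by 1.41 on the log2 scale (SE 0.307, adjusted p = 0.00356, edgeR's quasi-likelihood test with Benjamini-Hochberg adjustment, as throughout). Its range in the border zone was 245.2 to 348.5 CPM (median 296.4) against 212.2 to 775.9 CPM (median 640.8) in sham, with a log2 fold change of -0.98 (SE 0.257, adjusted p = 0.0115). Remote zone libraries were at 373.5 to 659.1 CPM (median 469.9) against 544.8 to 1065 CPM (median 1003), with -0.89 (SE 0.179, adjusted p = 0.0042). Untreated MI thus had a lower Gja1 level in the septum too, where the median sum of cardiomyocyte markers was also lower, at 52090 CPM against 82840 CPM in sham.

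Gja5 took the other direction. It was at 8.85 to 31.7 CPM (median 18.6) in the untreated MI infarct zone and at 6.99 to 13.5 CPM (median 10.97) in sham, a log2 fold change of 0.80 (SE 0.275, adjusted p = 0.0287). The border zone estimate was 0.53 (SE 0.326, adjusted p = 0.208). Mural and smooth muscle markers, with which Gja5 correlated, had median scores of 6.69 in the untreated MI infarct zone and 5.27 in sham, and their part in the Gja5 difference was not tested. Gjc1 passed in none of the 3 zones, with log2 fold changes between 0.16 and 0.31.

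Cdh2, which encodes N-cadherin, fell in each zone. The infarct zone libraries were at 88.9 to 221.3 CPM (median 136.6) in untreated MI and at 120.0 to 354.4 CPM (median 301.1) in sham, with a log2 fold change of -0.95 (SE 0.285, adjusted p = 0.0155). The border zone gave -0.90 (adjusted p = 0.0406) and the remote zone -0.64 (adjusted p = 0.00384).

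Among the desmosomal genes, Dsp, which encodes desmoplakin, the link to the desmin filaments, had the largest estimate in the infarct zone. Dsp was at 107.7 to 573.2 CPM (median 277.2) in untreated MI and at 348.2 to 1229 CPM (median 1037) in sham, a log2 fold change of -1.59 (SE 0.464, adjusted p = 0.0141). It was -1.47 in the border zone (SE 0.420, adjusted p = 0.0165) and -0.86 in the remote zone (SE 0.198, adjusted p = 0.00788). Dsg2, the desmosomal cadherin of the heart, was the member without overlap in 2 zones. Its infarct zone values were 12.6 to 40.3 CPM (median 26.8) in untreated MI against 43.9 to 85.1 CPM (median 76.8) in sham, with a log2 fold change of -1.46 (SE 0.305, adjusted p = 0.00284). Its remote zone values were 51.6 to 84.5 CPM (median 61.7) against 97.97 to 121.3 CPM (median 112.6), with -0.79 (SE 0.109, adjusted p = 0.000858). Of all genes tested, 5.82% lay entirely below sham in the infarct zone and 4.69% in the remote zone. In the border zone the Dsg2 ranges met at 39.4 CPM, the value of Sham replicate 5, with a log2 fold change of -1.27 (adjusted p = 0.0114).

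Pkp2 fell in the infarct zone, with a median of 54.6 CPM against 133.2 CPM in sham and a log2 fold change of -1.17 (SE 0.292, adjusted p = 0.00681). The remote zone difference was smaller, at -0.41 (SE 0.103, adjusted p = 0.0128), and the border zone estimate of -0.94 did not pass (SE 0.388, adjusted p = 0.0681). Jup, which encodes plakoglobin, shared by desmosomes and adherens junctions, fell by 0.63 on the log2 scale in the infarct zone, with an adjusted p = 0.0414. Its fall in the remote zone was 0.50, with an adjusted p = 0.0397, while the border zone estimate was -0.70 (adjusted p = 0.0641). Dsc2, the desmocollin of the heart, was at 7.10 to 13.3 CPM (median 8.55) in the infarct zone and at 11.6 to 24 CPM (median 18.5) in sham, with a log2 fold change of -0.998 (SE 0.202, adjusted p = 0.00247). It was -0.68 in the border zone (adjusted p = 0.0326). Tjp1, which encodes the scaffold ZO-1 that binds the tail of Cx43, passed in no zone of untreated MI (log2 fold changes between -0.38 and -0.22). Without Sham replicate 5 the members past the threshold were 9 in the infarct, 8 in the border and 8 in the remote zone. Of all genes, 64.8%, 60.8% and 46.5% then passed in these zones. The remote zone count was lower with all 9 groups in a single fit. The border zone count was lower with a block for the replicate number and with any other sham heart left out.

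**Figure D3:**
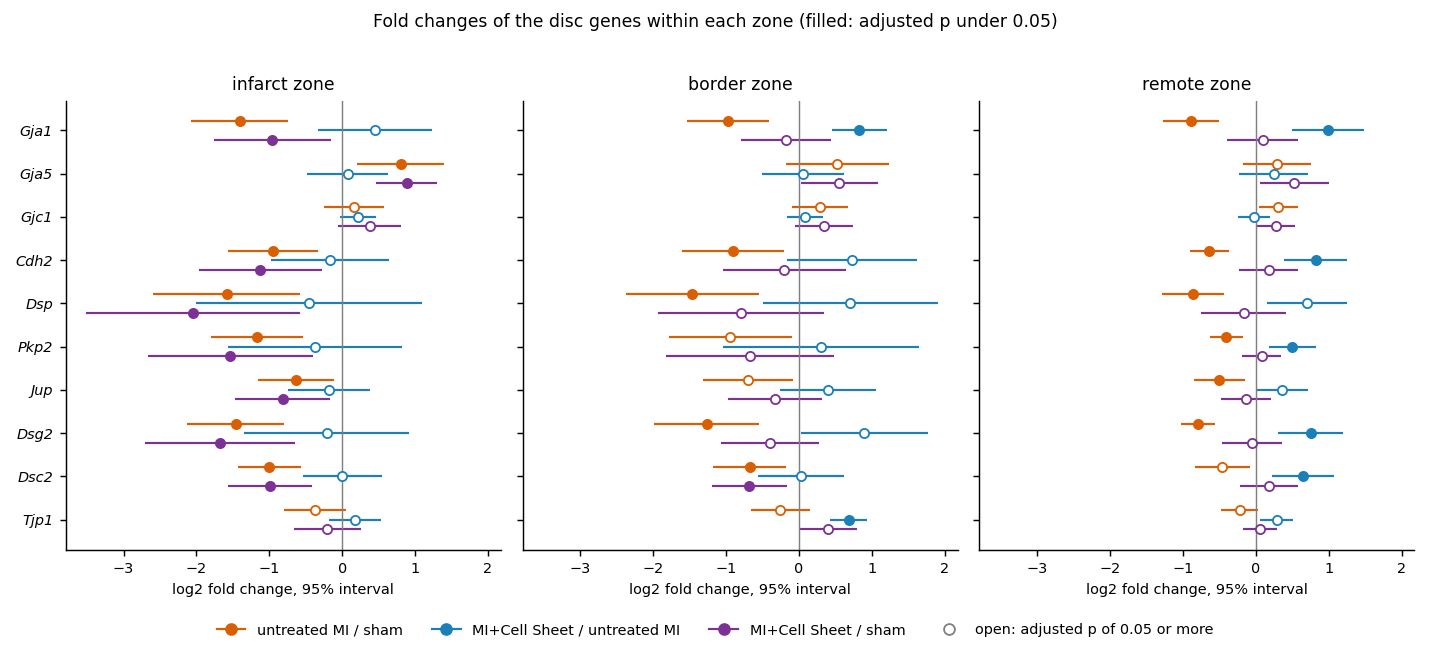
Log2 fold change with its 95% confidence interval (x axis) for the 10 genes (y axis) in each zone, for untreated MI against sham, MI+Cell Sheet against untreated MI and MI+Cell Sheet against sham; filled points passed an adjusted p of 0.05. In the remote zone the first comparison lies to the left of 0 for 8 genes, the second to the right for 9, and the third has no filled point.

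Whether the effect of infarction differed between zones was asked of an interaction term, fitted with a block for each heart. Pkp2 passed for infarct against remote, with a difference of log2 fold changes of -0.84 (SE 0.277, adjusted p = 0.0353), in a test in which 28.9% of all genes passed. Relative to the cardiomyocyte genes the difference turned to 0.81, and without the block no member passed (8.7% of all genes). With 8 of the 12 hearts left out in turn (Sham replicates 1, 2, 3, 4 and 6 and MI replicates 2, 5 and 6) no member passed, while 21.9% to 26.6% of all genes did. Pkp2 did not pass without MI replicate 4 either. The count was 4 members without MI replicate 1 (34.5%) and 2 without MI replicate 3 (28.8%). Infarct against border and border against remote gave no call for any of the genes tested in edgeR, with 1430 and 3995 genes at an unadjusted p under 0.05; DESeq2 called 71 and 1483 genes and no member.

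The second comparison asks what the cell sheet changed relative to untreated MI. Of the 10 members, 5 were higher in the MI+Cell Sheet remote zone (Gja1, Cdh2, Pkp2, Dsg2 and Dsc2), in the border zone 2 were higher (Gja1 and Tjp1), and in the infarct zone none passed. No member was lower in any zone. The shares of all genes that passed were 17.1% in the remote zone (10.3% higher), 18.0% in the border zone (8.47% higher) and 0% in the infarct zone. The median log2 fold change of the members was 0.571 in the remote, 0.542 in the border and -0.0813 in the infarct zone, where that of all genes was between -0.00736 and 0.00596.

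Gja1 in the remote zone was at 457.7 to 1261 CPM (median 1078) in MI+Cell Sheet and at 373.5 to 659.1 CPM (median 469.9) in untreated MI. The lowest treated library was replicate 1, and the other five lay between 838.0 and 1261 CPM, above all 6 untreated libraries. The log2 fold change was 0.99 (SE 0.227, adjusted p = 0.0155). Cdh2 was at 266.2 to 705.1 CPM (median 452.8) against 197.7 to 318.7 CPM (median 265.4), with 0.82 (SE 0.199, adjusted p = 0.0185). The sham medians in this zone were 1003 CPM for Gja1 and 428.5 CPM for Cdh2.

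Of the desmosomal genes, Dsg2 in the remote zone was at 49.2 to 145.4 CPM (median 115.2) against 51.6 to 84.5 CPM (median 61.7), with a log2 fold change of 0.75 (SE 0.209, adjusted p = 0.0296). Dsc2 was at 14.9 to 32.1 CPM (median 28.6) against 13.2 to 22.9 CPM (median 15.6), with 0.65 (SE 0.195, adjusted p = 0.0387), and Pkp2 gave 0.50 (SE 0.150, adjusted p = 0.0392). The estimate for Dsp was 0.70 and did not pass (SE 0.255, adjusted p = 0.072). The cardiomyocyte markers differed in the same direction in this zone, with 2 of 12 genes higher and a median log2 fold change of 0.412. The fibroblast score was lower at the median, with 7.71 against 8.96, and so was the share of reads assigned to no gene. The macrophage score was at 4.68 against 6.28, with 1 of 8 genes past the threshold (C1qb, -1.10), and 3 of the 8 mural and smooth muscle genes were higher, with Myh11 at 2.20 (adjusted p = 0.000169). The part of these shifts in the members' differences was not tested.

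The count in the remote zone depended on single hearts and on the scale. Without MI+Cell Sheet replicate 1 it was 8 members, while 41.6% of all genes passed. Without any of MI replicates 3, 5 and 6 or MI+Cell Sheet replicates 2, 3 and 5 it was 2 (7.04% to 14.4% of all genes), and without MI replicates 1 or 4 or MI+Cell Sheet replicates 4 or 6 it was 3 (9.04% to 12.7%). It was 7 in DESeq2, which added Dsp and Tjp1 and called 24.9% of all genes. Relative to the cardiomyocyte genes it was 0, with 0.124% of all genes called, and the estimates were 0.51 for Gja1, 0.36 for Cdh2, 0.26 for Dsg2, 0.17 for Dsc2 and 0.072 for Pkp2. With all 9 groups in a single fit it was 1, beside 14.6% of all genes.

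In the border zone, Gja1 was at 334.2 to 734.3 CPM (median 512.3) in MI+Cell Sheet and at 245.2 to 348.5 CPM (median 296.4) in untreated MI. Only replicate 1, the library nearly without cardiomyocyte RNA, lay within the untreated range. The log2 fold change was 0.83 (SE 0.173, adjusted p = 0.00717), and 0.93 without that heart. Tjp1 did not overlap, with 166.8 to 220.6 CPM against 95.9 to 145.0 CPM, a log2 fold change of 0.68 (SE 0.117, adjusted p = 0.00254). Of all genes, 4.23% lay entirely above untreated MI in this zone. The count of 2 was the same with each heart left out in turn (11.8% to 18.8% of all genes). Relative to the cardiomyocyte genes no gene passed in this zone, with estimates of 3.91 for Gja1 (SE 1.71) and 4.64 for Tjp1 (SE 1.77). In replicate 1 the log2 level of Gja1 minus the cardiomyocyte score was 4.56, beside medians of -1.81 in its group and -2.96 in untreated MI. For Tjp1 these values were 3.96, -3.18 and -3.98. The estimates on this scale were not fitted without that heart.

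Dsg2, Cdh2 and Dsp had similar estimates in the border zone with wider errors. Not all members rose alike, and the lowest estimate of the 10 was 0.027. Mean log2 CPM (MI+Cell Sheet, then untreated MI) was 5.83 and 5.83 for Pkp2, 3.42 and 3.41 for Dsc2, and 4.79 and 4.73 for Gjc1. Dsg2 gave 0.90 (SE 0.400, adjusted p = 0.141), Cdh2 0.73 (SE 0.410, adjusted p = 0.243) and Dsp 0.70 (SE 0.552, adjusted p = 0.412). The 12 cardiomyocyte markers, with no gene past the threshold, went both ways in this zone, with a median log2 fold change of -0.221. Their estimates ran from -1.08 for Tnni3 (SE 0.815) to 1.00 for Ryr2 (SE 0.792). Mural and smooth muscle markers were higher, with 4 of 8 genes past the threshold, as were 4 of the 6 adipocyte genes tested. Of the endothelial genes, Cdh5 (0.82, adjusted p = 0.00339) and the arterial Sox17 (0.87, adjusted p = 0.00322) and Sema3g (0.85, adjusted p = 0.0295) were higher, and Cldn5 was lower (-0.62, adjusted p = 0.0303). The median arterial endothelial score was 4.40 against 4.17. The part of these cell types in the Gja1 and Tjp1 differences was not tested.

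In the infarct zone the largest member estimate was that of Dsp, at -0.45, with an interval of -2.01 to 1.10, and that of Gja1 was 0.45, with an interval of -0.34 to 1.23. No member had an unadjusted p under 0.05, and DESeq2 called none. Across all genes, edgeR called 0 of 16196, with 1341 at an unadjusted p under 0.05, and DESeq2 called 85. MI+Cell Sheet libraries ranged widely here, from 33.4 to 718.2 CPM for Dsp and from 178.1 to 711.4 CPM for Gja1, as did their cardiomyocyte sums, from 1190 to 44040 CPM. With the counts of the infarct and border zone of each heart summed, Gja1 gave 0.66 (SE 0.197, adjusted p = 0.0467) and Tjp1 0.45 (SE 0.120, adjusted p = 0.0299), in a test that called 12.1% of all genes. No member passed on the summed counts without MI replicates 4 or 6 or MI+Cell Sheet replicate 6, and 1 passed with any other left out except MI replicate 1, without which 2 did, while 6.75% to 13.3% of all genes passed in these fits.

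Whether the effect of the sheet differed between zones could not be shown. For the members, none of the 3 interaction tests had an adjusted p under 0.05 in edgeR, and no gene did, with 4190, 3430 and 2012 genes at an unadjusted p under 0.05 for infarct against remote, border against remote and infarct against border. The member with the lowest p was Tjp1 for infarct against border, with a difference of -0.53 (SE 0.154, adjusted p = 0.221), which DESeq2 called, in a test that called 402 genes.

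**Figure D4:**
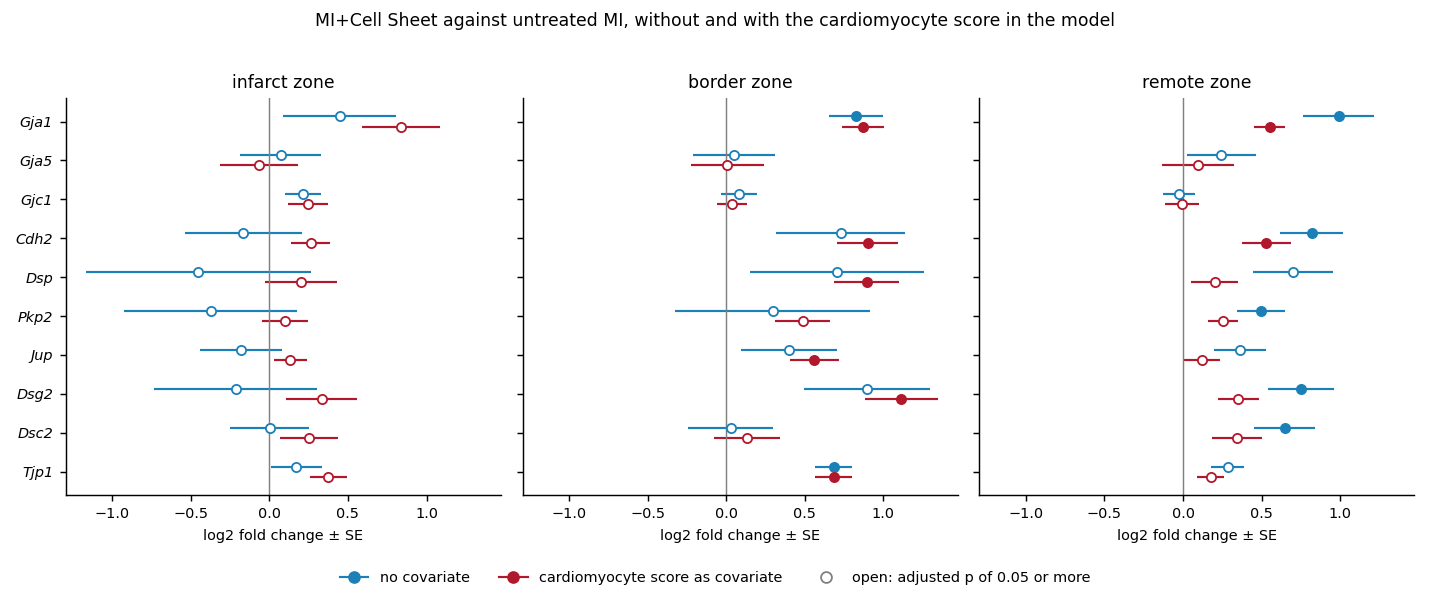
Log2 fold change ± SE of MI+Cell Sheet against untreated MI (x axis) for the 10 genes (y axis) by zone, without a covariate and with the cardiomyocyte score of each library in the model; filled points passed an adjusted p of 0.05. Of the 10 genes in the border zone, 6 passed with the score in the model, against 2 without it.

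With the cardiomyocyte score in the model, members were compared at a given score, on the assumption that they depend on the score linearly and alike in both groups. MI+Cell Sheet border replicate 1, with a score of 3.82, had no counterpart in untreated MI, where the lowest border score was 8.72. Then 6 members were higher in the MI+Cell Sheet border zone, beside 30.1% of all genes called and 14.2% called higher. Dsg2 gave 1.11 (SE 0.232, adjusted p = 0.00413), Cdh2 0.90 (SE 0.196, adjusted p = 0.00521), Dsp 0.89 (SE 0.207, adjusted p = 0.00726), Gja1 0.87 (SE 0.133, adjusted p = 0.000806), Tjp1 0.68 (SE 0.118, adjusted p = 0.00149) and Jup 0.56 (SE 0.157, adjusted p = 0.0185), all on the log2 scale. In the remote zone Gja1 (0.55, SE 0.0995, adjusted p = 0.00376) and Cdh2 (0.53, SE 0.157, adjusted p = 0.0346) passed, with 15.4% of all genes called. Pkp2, Dsg2 and Dsc2 did not pass. MI+Cell Sheet remote replicate 1 (10.98) scored below all untreated MI remote libraries (11.37 to 12.03), and the others (12.08 to 12.58) scored above them. Members were thus hardly compared at a given score there. No member passed in the infarct zone, nor did any other gene. With MI+Cell Sheet replicate 1 left out of this model, a choice made after seeing the data, the border zone count was 7, with Pkp2 added and 33.0% of all genes called, and Dsg2 gave 0.92 (SE 0.0895), Gja1 0.90 (SE 0.140) and Tjp1 0.62 (SE 0.0953). The remote zone count was then 0, with 0% of all genes called and 1905 at an unadjusted p under 0.05, and Gja1 gave 0.45 (SE 0.178) and Cdh2 0.70 (SE 0.284).

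The same model of untreated MI against sham called 0 members in the infarct and border zones, where 4.96% and 7.08% of all genes passed. In all 3 zones every sham score but that of replicate 5 lay above all those of untreated MI, so that group and score can hardly be told apart. In the remote zone it called 3, with Dsg2 at -0.61 (SE 0.119, adjusted p = 0.00455), Gja1 at -0.34 (SE 0.111, adjusted p = 0.0454) and Gjc1 at 0.55 (SE 0.148, adjusted p = 0.0208), beside 17.8% of all genes. When counts were scaled to the cardiomyocyte genes in place of all genes, the median of all genes moved by 2.59 in the infarct and 2.00 in the border zone. On that scale untreated MI had 8 of the 10 members higher than sham in the infarct zone, beside 87.4% of all genes, and 7 in the border zone, beside 81.5%. Gja1, for example, gave 1.11 in the infarct and 1.33 in the border zone, under the median of all genes.

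The third comparison asks how far hearts with the sheet stood from sham hearts; it shares its libraries with the other two comparisons. In the infarct zone 7 members were lower than in sham and Gja5 was higher, beside 57.9% of all genes called (29.2% lower, 28.6% higher). Relative to the cardiomyocyte genes, whose median log2 fold change was -2.56 beside 0.0147 for all genes, the sign turned for those 7. That scale raises the estimates of genes in general, not of the members alone. The values that follow are again relative to all transcripts. Dsp gave a log2 fold change of -2.05 (SE 0.678, adjusted p = 0.0219), Dsg2 -1.68 (SE 0.474, adjusted p = 0.0104), Pkp2 -1.54 (SE 0.520, adjusted p = 0.0242) and Gja1 -0.96 (SE 0.370, adjusted p = 0.0416). Gja5 lay entirely above sham, at 15.9 to 26.5 CPM (median 18.6) against 6.99 to 13.5 CPM (median 10.97), with 0.88 (SE 0.195, adjusted p = 0.00275), as did 13.3% of all genes. The count of 8 fell to 4 without MI+Cell Sheet replicates 1 or 4 and to 5 without MI+Cell Sheet replicate 3 or Sham replicates 1 or 3 (50.3% to 51.3% of all genes), and it was 10 without Sham replicate 5, where 70.0% of all genes passed.

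Against sham, Dsc2 was the member that passed in the border zone, at 6.82 to 18.4 CPM (median 10.7) against 10.9 to 20.2 CPM (median 19.1) in sham, with a log2 fold change of -0.68 (SE 0.238, adjusted p = 0.0358), while 43.6% of all genes passed. The estimate of Gja1 was -0.18, with an interval of -0.80 to 0.43. Relative to the cardiomyocyte genes, whose median log2 fold change was -1.77 beside -0.0298 for all genes, its sign turned. The Dsc2 call was lost without Sham replicates 1, 2, 3, 4 or 6 or MI+Cell Sheet replicates 1, 2, 5 or 6, where 35.9% to 39.4% of all genes passed. Without Sham replicate 5, Gja5, Dsc2 and Tjp1 passed, beside 61.6% of all genes. No member passed in the remote zone in edgeR or DESeq2, and 0.0066% of all genes did in edgeR; 2 members, Gja5 and Gjc1, had an unadjusted p under 0.05. There the intervals were -0.40 to 0.58 for Gja1, -0.24 to 0.58 for Cdh2 and -0.46 to 0.36 for Dsg2 on the log2 scale.

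The other genes of these junctions were counted from 4 lists. Their counts stand beside the 49.9% of all genes called in the untreated MI infarct zone (27.2% lower, 22.7% higher) and the 8.47% and 10.3% called higher with the sheet in the border and remote zones. Of 17 other gap junction genes, 6 were tested in the infarct zone of untreated MI against sham, of which 2 rose and 1 fell, a share like that of all genes. Among them were the arterial connexin gene Gja4 (0.86), which is also on the arterial endothelial list, and Gja3 (-2.24), both as log2 fold changes. Gja3 was higher with the cell sheet in the remote zone, at 1.29 against untreated MI (SE 0.339, adjusted p = 0.0245), and the pannexin gene Panx1 was lower, at -0.93 (SE 0.270, adjusted p = 0.0338).

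Of 12 other genes of the adherens junction and area composita, 11 were tested, and 4 fell and 2 rose in the untreated MI infarct zone. Nrap, a scaffold of the disc and of growing myofibrils, was at -1.48, Ctnna3 (alpha-T-catenin) at -1.47 and Xirp1 at -1.44, whereas the nectin gene Nectin2 was at 1.17. With the cell sheet, 3 of 11 were higher than in untreated MI in the border zone, namely Vcl (0.62, adjusted p = 0.0237), Ctnnd1 (0.39, adjusted p = 0.0282) and Afdn (0.31, adjusted p = 0.0299). There were 5 of 11 higher in the remote zone, among them Xirp1 (1.13, adjusted p = 0.0061), Vcl, the gene of vinculin, which anchors actin (0.81, adjusted p = 0.00724), Nrap (0.70, adjusted p = 0.0348) and Arvcf (0.69, adjusted p = 0.0171). None was lower in either zone.

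Of 12 other desmosomal genes, 6 were tested in the untreated MI infarct zone. Pkp1 (log2 fold change 3.93) and Evpl (2.03), both known from stratified epithelia, rose, while Perp (-1.91) and the desmin gene Des (-0.91) were among the 3 that fell. Des was higher with the sheet in the remote zone, at 0.52 (adjusted p = 0.0367). Of the 11 disc scaffolds and coupled proteins, 6 fell and 2 rose in the untreated MI infarct zone, with Fgf13 at -2.08, the muscle caveolin gene Cav3 at -1.63, the ankyrin gene Ank2 at -1.36 and Tmem65 at -1.14. With the sheet, 1 of 11 was higher than in untreated MI in the border zone, Cxadr (0.48, adjusted p = 0.0423), and 3 in the remote zone, Ank2 (1.03, adjusted p = 0.00962), Cxadr (0.70, adjusted p = 0.0219) and Ank3 (0.65, adjusted p = 0.035). In the infarct zone none of the genes tested from the 4 lists passed between MI+Cell Sheet and untreated MI.

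The genes whose levels ran most nearly with each member over the 54 libraries were ranked by Spearman's rho among 13300 genes with a mean log2 CPM of at least 1. For Cdh2 they were the sodium-calcium exchanger gene Slc8a1 (0.980), Fhod3 (0.980) and Lmod2 (0.979), and for Dsp they included Klhl31 (0.985) and RGD1564899 (0.985). Pkp2 had Trim55 (0.979), Lmod2 (0.979) and Akap6 (0.978), Dsg2 had Parm1 (0.981), Slc41a1 (0.980) and Akap6 (0.977), and Dsc2 had Pkp2 itself (0.959), Trim55 (0.956) and Lmo7 (0.955). Jup had Pdzd2 (0.971), Tns1 (0.970) and RGD1564899 (0.967). For Gja1 the nearest were Crybg3 (0.958), Cacna1c (0.956), the gene of the cardiac L-type calcium channel, and Akap1 (0.953). Those nearest to Tjp1 included Apbb2 (0.932) and Utrn (0.909). The likeness was lower for the other two connexins. Gja5 had Adamts1 (0.697), Ctnnd1 (0.679) and the smooth muscle channel subunit gene Kcnmb1 (0.678), and Gjc1 had Mpzl1 (0.708), Arhgef28 (0.690) and Pkn3 (0.674).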

How the data were processed

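The authors sequenced polyA libraries of frozen left ventricular pieces as paired reads, aligned them with STAR to mRatBN7.2 and deposited 1 table of raw counts per gene and library, with no normalization. Which counter was used, and with what strand setting, is not given in the sources used here. The 5 summary lines of each table, which name no gene, held 17.0% to 42.8% of the counts and were left out. The members and lists were chosen with earlier results of these data known.

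Groups came from the labels. Each comparison was fitted on the 12 libraries of its 2 groups with edgeR 4.0.16 (R 4.3.3; TMM, filterByExpr, quasi-likelihood F test, Benjamini-Hochberg adjustment over all genes tested, threshold 0.05), and interactions between zones on 24 libraries with the animal as a block. SE is the size of the log2 fold change divided by the square root of F. Levels are CPM with TMM factors over 54 libraries, and log2 values have a prior count of 2. Low genes have the larger counting error at these depths. No pair of libraries within a group (135 pairs) held identical counts, and the lowest chi-square per degree of freedom was 7.97.

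All 10 members are named in each comparison, from the 4 junction lists the called genes of largest fold change (up to 4 per list), and for each member the 3 genes of highest rho. A few genes that these rules select are not reported here. Alternatives were DESeq2 1.42.0, other filters and scalings, the cardiomyocyte score as a covariate, all 9 groups in a single fit, a fold threshold, replicate blocks and leaving out hearts. Leaving out Sham replicate 5 and MI+Cell Sheet replicate 1 together, MI+Cell Sheet replicates 2 and 6 together, or MI+Cell Sheet replicate 1 from the model with the score was chosen after seeing the data. The scripts were tested on simulated data. No protein sequence was used here.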

Additional observations from a re-analysis of the deposited data

Results flagged for a closer look

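In 24 of the 90 sets of 6 libraries (10 genes in 9 groups) 1 library lay farther from the others than Dixon's 95% limit, where chance gives 5% of sets. Of these, 20 were low values of Sham replicate 5. In the infarct zone its log2 CPM was 7.97 for Gja1, 3.40 for Gjc1, 6.91 for Cdh2, 8.44 for Dsp, 6.35 for Pkp2, 6.02 for Jup, 5.46 for Dsg2 and 6.33 for Tjp1. In the border zone it was 7.73 for Gja1, 2.42 for Gja5, 6.81 for Cdh2, 8.32 for Dsp, 6.03 for Jup, 3.46 for Dsc2 and 6.23 for Tjp1, and in the remote zone 2.93 for Gja5, 8.24 for Cdh2, 9.43 for Dsp, 7.07 for Jup and 3.89 for Dsc2. Connexin and scaffold genes were low in this heart together with the desmosomal genes, and its cardiomyocyte and endothelial scores were low too.

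MI+Cell Sheet remote replicate 1 was low for 3 desmosomal genes, with a log2 CPM of 6.97 for Jup, 5.62 for Dsg2 and 3.90 for Dsc2. MI+Cell Sheet remote replicate 4 was high for Gjc1, at 4.91. The effect of untreated MI on Pkp2 differed between the infarct and remote zones by -0.84 on the log2 scale (edgeR's interaction test, adjusted p = 0.0353). The difference turned to 0.81 relative to the cardiomyocyte genes, and it did not pass without the block for the heart or with any of 9 of the 12 hearts left out.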

How the results depend on the processing

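Counts below are of the 10 members past the threshold. The share of all genes past it moved with the setting too, so a count without its share says little about the members. Scaled to the cardiomyocyte genes, 87.4% of all genes were higher in the infarct and 81.5% in the border zone of untreated MI against sham. With the cardiomyocyte score as covariate, 4.96%, 7.08% and 17.8% of all genes passed in that comparison (infarct, border, remote). In the infarct zone of MI+Cell Sheet against untreated MI and in the remote zone of MI+Cell Sheet against sham the count was 0 under every alternative run. With the cardiomyocyte score as covariate, untreated MI against sham gave 0 in the infarct, 0 in the border and 3 in the remote zone; MI+Cell Sheet against untreated MI gave 6 in the border zone, 2 in the remote zone and 5 on the summed counts; and MI+Cell Sheet against sham gave 0 in the infarct and 0 in the border zone. A log2 fold change above 1 left 4, 2 and 0 members for untreated MI against sham (infarct, border, remote), 4 in the infarct and 0 in the border zone of MI+Cell Sheet against sham, and 0 in the border zone, the remote zone and the summed counts of MI+Cell Sheet against untreated MI. Scaling to the cardiomyocyte genes gave 0, 0 and 0 for these last 3, 3 for untreated MI against sham in the remote zone, 8 for MI+Cell Sheet against sham in the border zone and 6 for the interaction of infarct and remote zone in untreated MI. Without a filter on low counts it was 3 for untreated MI against sham in the border zone, 1 on the summed counts and 0 for MI+Cell Sheet against sham in the border zone. Library size without TMM factors, which moved the median of all genes by up to 0.276, gave 3 for the sheet in the remote zone and 3 against sham in the border zone. All 9 groups in a single fit gave 1 for untreated MI and 1 for the sheet in the remote zone, and 3 for MI+Cell Sheet against sham in the border zone. DESeq2 called 1 member for the interaction of infarct and border zone with the sheet. With the score as covariate and MI+Cell Sheet replicate 1 left out, the sheet comparison gave 7 in the border and 0 in the remote zone. The causes were not tested.

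Signs that turned are given for members that passed or had an estimate past 0.5 in size, and not for all smaller estimates. Where the cardiomyocyte genes fell, scaling to them raised the estimates of genes in general, not of the members alone. Relative to the cardiomyocyte genes the log2 fold changes with a turned sign were, for untreated MI against sham in the infarct zone, 1.11 (Gja1), 1.56 (Cdh2), 0.57 (Dsp), 1.16 (Pkp2), 1.99 (Jup), 0.80 (Dsg2) and 1.66 (Dsc2); in the border zone 1.33 (Gja1), 0.92 (Cdh2), 0.26 (Dsp), 0.61 (Pkp2), 1.18 (Jup), 0.39 (Dsg2) and 1.27 (Dsc2); and in the remote zone 0.17 (Pkp2) and 0.13 (Jup). For MI+Cell Sheet against sham they were 3.42 (Gja1), 2.85 (Cdh2), 1.13 (Dsp), 1.85 (Pkp2), 3.39 (Jup), 1.95 (Dsg2) and 3.29 (Dsc2) in the infarct zone and 2.58 (Dsp), 1.95 (Pkp2) and 4.52 (Dsc2) in the border zone, and 0.81 for the Pkp2 interaction. Smaller estimates that turned were those of Tjp1 in untreated MI, to 2.25, 1.84 and 0.40 (infarct, border, remote), and, in the border zone of MI+Cell Sheet against sham, those of Gja1 (5.24), Cdh2 (4.11), Jup (4.51) and Dsg2 (4.16). With the score as covariate, signs turned to 0.065 (Cdh2), 0.069 (Dsp) and 0.14 (Jup) in the infarct zone of untreated MI and to -0.0034 (Gja5), 0.23 (Cdh2), 0.033 (Dsp), 0.28 (Pkp2) and 0.29 (Jup) in the border zone. Against sham, MI+Cell Sheet then gave 0.064 (Gja1), 0.39 (Cdh2), 0.34 (Dsp), 0.34 (Pkp2) and 0.34 (Jup) in the infarct zone. The border zone gave 0.20 (Dsp) and 0.40 (Pkp2). In both zones every sham score but that of replicate 5 lay above all those of MI+Cell Sheet. Group and score can hardly be told apart there.

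With each heart left out in turn, the counts ranged from 6 to 9 (infarct), 3 to 8 (border) and 5 to 8 (remote) for untreated MI against sham; from 0 to 0, 2 to 2 and 2 to 8 for MI+Cell Sheet against untreated MI, and from 0 to 2 on the summed counts; from 4 to 10, 0 to 3 and 0 to 0 for MI+Cell Sheet against sham; and from 0 to 4 for the interaction of infarct and remote zone in untreated MI. The border zone count of untreated MI was 8 without Sham replicate 5 and 3 without MI replicates 1 or 2 or any other sham heart. Without both Sham replicate 5 and MI+Cell Sheet replicate 1, 9, 3 and 0 members passed against sham. The counts of this paragraph stand without the share of all genes and so say little about the members.

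The numbers of the labels do not pair hearts across treatments. Same-numbered libraries deviated together with every r over 0.1 in 0 of 9 comparisons (median r -0.039), and in 16 cases a sample correlated best with its own number. With the replicate block the counts were 7, 1 and 7 for untreated MI against sham, 0, 2 and 0 for MI+Cell Sheet against untreated MI, 0 on the summed counts, and 7, 0 and 0 for MI+Cell Sheet against sham, each for infarct, border and remote zone. Zones of 1 heart had a median r of 0.225 (-0.464 to 0.93). Every r was over 0.1 in 3 of 9 sets of zone pairs, those of the sham hearts. With no replicate block for the heart, the interaction of infarct and remote zone in untreated MI had 0 members past the threshold. These counts, too, stand without the share of all genes.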
